A study of Mus musculus with 2 samples.

Results

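The genes described here are 9 known for their activity in fetal tissues and, for most of them, again in tumours: Lin28a, Lin28b, Igf2bp1, Igf2bp2, Igf2bp3, Hmga1, Hmga2, Arid3a and Gpc3. They were chosen by symbol, with earlier results of these data known, and all 9 were found among the 43346 Ensembl mouse genes of the tables. RNA came from livers of B6NCrl mouse embryos at embryonic day 11.5, pooled over both sexes, with no other treatment or allele named. There were 2 libraries of 1 group, labelled as biological replicates 1 and 2. The label of replicate 1 names 109 embryos and that of replicate 2 gives no number. Each library started from an RNA amount equal to that of 1 cell and was made with the SmartSeq protocol, which copies polyadenylated RNA and amplifies it by PCR. So the material is whole pooled liver, although the assay is titled single-cell. The sample descriptions call it total RNA-seq, so the labels do not settle whether RNA that is not polyadenylated was included. Without a second group there is no contrast to test. Every difference below is between replicates, is given without a p-value, and measures the spread between these samples.

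Fetal liver at this stage is the main blood-forming organ, where hepatoblasts lie among red cell precursors. Lin28a and Lin28b are RNA-binding proteins that hold back maturation of the let-7 microRNAs, which pair with messenger RNAs through a short seed near the 5′ end and lower their output. The Igf2bp genes, the Hmga genes and Arid3a include well-studied let-7 targets, and together with Lin28b they are used as a signature of fetal blood formation. Igf2bp proteins bind and stabilise messenger RNAs, Hmga proteins bend AT-rich DNA, Arid3a is a DNA-binding transcription factor, and Gpc3 is a heparan sulphate proteoglycan of the cell surface that serves as a marker of liver cancer.

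The let-7 family ties these genes together by sequence, so its mature 5p strands are shown first. RefSeq (mm10) lists 12 let-7 and miR-98 loci in mouse, whose 9 named mature 5p strands share 1 seed. Capitals mark that seed, bases 2 to 8, in 4 strands that differ beyond it.
mmu-let-7a-5p: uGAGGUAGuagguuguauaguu
mmu-let-7d-5p: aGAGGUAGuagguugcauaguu
mmu-let-7g-5p: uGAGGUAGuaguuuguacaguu
mmu-miR-98-5p: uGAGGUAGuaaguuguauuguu

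Lin28 proteins are known to bind a GGAG motif in the let-7 precursor. The let-7g hairpin, on chr9:106178840-106178927 (+ strand), holds it once, in capitals, between the 2 arms.
Mirlet7g: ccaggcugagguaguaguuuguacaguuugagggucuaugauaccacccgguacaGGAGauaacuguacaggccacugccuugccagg
Searching the RNA strand as written, GGAG was found in 9 of the 12 let-7 and miR-98 hairpins and in 44.1% of 993 other mouse hairpins. In all 9 it lay after the 5p strand, in Mirlet7e also within it. Hairpins of Mirlet7b, Mirlet7c-2 and Mir98 held none. The tables list 10 let-7 or miR-98 hairpin genes and none had a read in either library. The RNA was selected above a size limit per the labels, so the let-7 strands themselves were not measured.

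A match to the let-7 seed, the letters CTACCTC, was looked for on the sense strand of the 3′ UTR of 1 complete coding transcript a gene (annotation M21 on mm10). It was found in 8 of the 9 genes, 18 times in all, against 7.86% of 19878 genes with a 3′ UTR. The same letters reversed and complemented, GAGGTAG, were found in 6.38% of those genes. Windows of 23 bases are shown for the match nearest to the stop codon in 6 genes, with the match in capitals and the gene's own strand read 5′ to 3′.
Lin28b, chr10:45381022-45381044 (- strand): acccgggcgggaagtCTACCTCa
Igf2bp1, chr11:95961778-95961800 (- strand): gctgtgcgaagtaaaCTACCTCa
Igf2bp3, chr6:49086787-49086809 (- strand): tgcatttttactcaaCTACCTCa
Hmga1, chr17:27563277-27563299 (+ strand): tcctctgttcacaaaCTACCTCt
Hmga2, chr10:120364224-120364246 (- strand): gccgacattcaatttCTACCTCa
Arid3a, chr10:79953895-79953917 (+ strand): aaggcaagtttctttCTACCTCa

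The matches were unevenly spread over the genes. Lin28b, Igf2bp1 and Hmga2 held 4 each, Lin28a held 2, and Igf2bp2, Igf2bp3, Hmga1 and Arid3a held 1 each. Only 0.895% of all genes held 2 or more. Long UTRs hold more matches: among genes with a UTR within 20% of the length of that of Igf2bp1 (6337 bases), 32.9% held at least 1, while for Hmga2 (2977 bases) the share was 15.7% and for Hmga1 (1177 bases) 7.94%. Of the genes of like UTR length, the gene itself left out, 0.261% held 4 or more for Igf2bp1 (383 genes), 0.22% for Lin28b (909 genes) and 0.058% for Hmga2 (1723 genes), so few others held as many. The first match of Hmga2 began 21 bases after its stop codon, and that of Lin28b 36 bases after. Gpc3, with a UTR of 359 bases, held none, as did most genes of that UTR length, of which 3.01% held a match. Since several of these genes are known for let-7 sites, their matches are a description of the sequence and not evidence of let-7 activity in these livers.

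**Figure D1:**
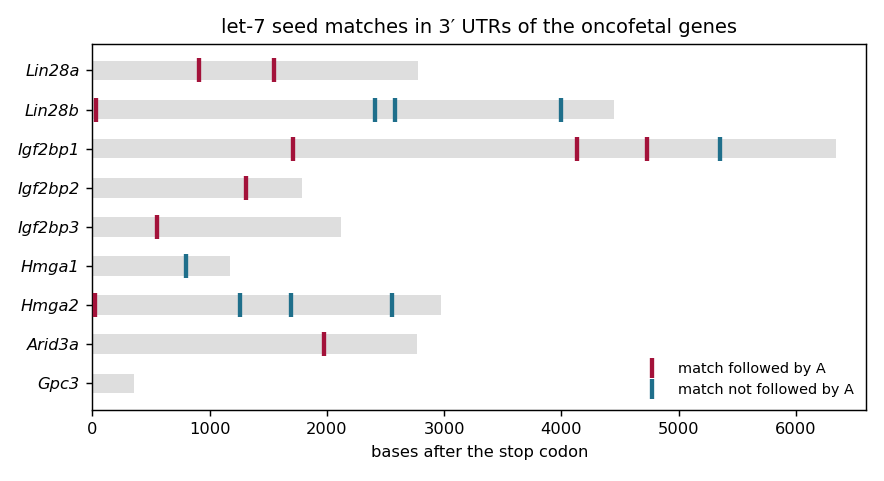
Positions of let-7 seed matches along the 3′ UTR of the 9 genes, in bases after the stop codon. Grey bars are the UTRs, red marks are matches followed by A and blue marks are other matches. Lin28b, Igf2bp1 and Hmga2 hold 4 matches each, and Gpc3 holds none.

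Levels are given as TPM, reads per length scaled to a fixed sum in each library, and detection means a TPM no lower than 1. By this measure replicate 1 held 8 of the 9 genes and replicate 2 held 7, and 7 were detected in both. Of all 21474 protein-coding genes, 27.3% were detected in both libraries. The median level of the 9 genes was 5.12 on the log2(TPM + 1) scale, beside 0.0072 for all protein-coding genes. The 9 were picked as fetal genes with earlier results of these data known. Their standing above all protein-coding genes may follow from that choice and is not a test. From highest to lowest mean TPM the order was Hmga1, Gpc3, Igf2bp1, Hmga2, Arid3a, Igf2bp2, Igf2bp3, Lin28b and Lin28a. Hmga1 and Gpc3 together held 88.3% of the summed TPM of the 9 genes in replicate 1 and 85.2% in replicate 2.

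**Figure D2:**
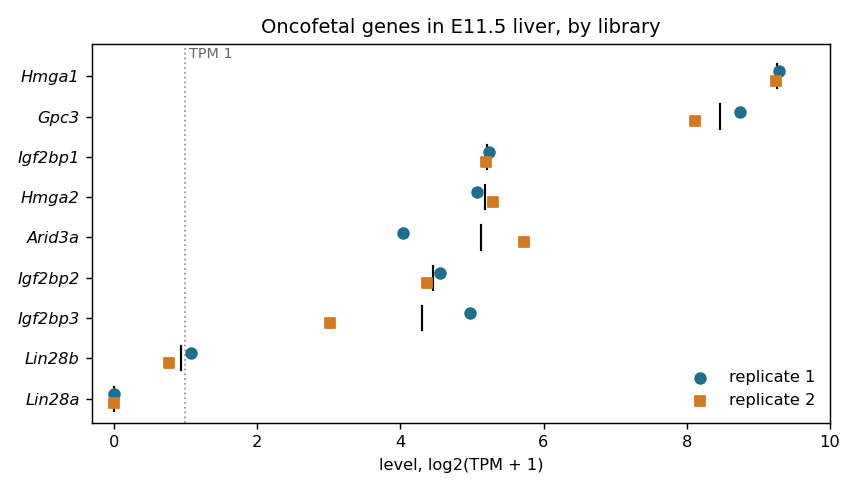
Level of each gene, log2(TPM + 1), in replicate 1 (circles) and replicate 2 (squares), with a vertical bar at the mean TPM of both and a dotted line at TPM 1. Hmga1 and Gpc3 lie above the other 7 genes in both libraries, and Lin28a is listed at 0 in both.

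The Lin28 genes stood at the bottom. Lin28a, on chr4:134003330-134018841 (- strand), had 0 reads in both libraries. With 3 reads as the limit that a count of 0 allows, its TPM was under 0.0298 in replicate 1 and under 0.03 in replicate 2 if its reads came from its longest transcript, of 3505 bases. A limit over its shorter transcripts would be higher, and the credibility bounds that the authors deposited for its posterior mean TPM were 0.0342 to 0.621 and 0.0366 to 0.628. Lin28b, the paralog known from fetal blood formation, lies on chr10:45376620-45486395 (- strand). It had 175 reads in replicate 1 and 111 in replicate 2, or TPM 1.12 and 0.71 (0.915 ± 0.29, SD, n = 2). That placed it on both sides of the detection limit and at rank 9231 of the protein-coding genes. Lin28b was read in both libraries, as were most genes at its level. Of 603 genes at a like TPM in replicate 1 (within 1.5 times), 26.4% had no read in replicate 2. In replicate 2, 53.9% of them were under TPM 1, as Lin28b was. Of 531 genes at a like TPM in replicate 2, 23.2% had no read in replicate 1 and 62.3% were under TPM 1 there. The limits for Lin28a cover counting error only, because PCR copies are not independent molecules.

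The Igf2bp genes encode 3 related proteins with RNA-binding domains of the RRM and KH types, and all 3 were detected in both libraries. Igf2bp1 (chr11:95957163-96005940, - strand) had TPM 36.7 in replicate 1 and 35.6 in replicate 2 (36.2 ± 0.771, SD, n = 2), from 8987 and 6452 reads. Igf2bp2 (chr16:22059009-22163299, - strand) had TPM 22.4 and 19.6 (21.02 ± 1.94), from 2479 and 2183 reads. The TPM of each differed by no more than 1.14-fold between the libraries. Igf2bp3 (chr6:49085223-49214957, - strand) had TPM 30.4 and 7.13 (18.8 ± 16.5), from 3816 and 889 reads, so that its spread was nearly as large as its mean. In replicate 1 it stood above Igf2bp2 and in replicate 2 below it, and the order of these paralogs is therefore not settled by these libraries. Igf2bp1 was the highest of the 3 in each, at 41.0% of the family's summed TPM in replicate 1 and 57.1% in replicate 2. Igf2bp2 held 25.0% and 31.5%, and Igf2bp3 held 34.0% and 11.4%. The Igf2bp3 locus overlaps Malsu1 and Gm18010 in the annotation, and Igf2bp1 overlaps Mir3063 and the antisense gene Gm29202. The sources used here do not give whether counting used the strand.

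The Hmga genes encode small proteins with AT-hooks that bind the minor groove of DNA. Hmga1 (chr17:27556497-27563674, + strand) had TPM 622 in replicate 1 and 605 in replicate 2 (613.5 ± 12.7, SD, n = 2), from 26762 and 25781 reads. It ranked 217 among the protein-coding genes and was the most abundant of the 9 in both libraries. Hmga2 (chr10:120361275-120476469, - strand), known from stem cells and growth control, had TPM 32.5 and 38.1 (35.3 ± 3.96), from 3470 and 3945 reads. Hmga1 was thus 19.1-fold above Hmga2 in replicate 1 and 15.9-fold in replicate 2 (17.5 ± 2.32), and it held 95.0% and 94.1% of the family's summed TPM. A related gene named Hmga1b on chr11:120762794-120764419 had TPM 11.2 and 10.7. Hmga1b and Hmga1 both had fractional expected counts, so reads matching both may have been split between them, and Hmga1b made up 1.76% and 1.74% of their summed TPM. Genes annotated over Hmga1 (Gm49774 and AI413582) and over Hmga2 (1700006J14Rik, 9230105E05Rik and Mir763) add the same doubt about overlapping reads.

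Arid3a and Gpc3 are single members of larger families. Arid3a (chr10:79927043-79955018, + strand) had TPM 15.4 in replicate 1 and 52.1 in replicate 2 (33.8 ± 25.9, SD, n = 2), from 2035 and 4519 reads. Its TPM was 3.37-fold higher in replicate 2, but its CPM, reads scaled to the library's total without regard to length, was 2.27-fold higher. Gpc3 (chrX:52272426-52613950, - strand) had TPM 425.6 and 277.4 (351.5 ± 105), from 26546 and 17021 reads. It ranked 384 among the protein-coding genes and stood below Hmga1 by 1.46-fold in replicate 1 and 2.18-fold in replicate 2. Antisense and other genes, Gm14582, A630012P03Rik, Mir6384 and Mir717, are annotated over the Gpc3 locus.

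In the order of levels, the neighbours Igf2bp1, Hmga2 and Arid3a, with mean TPM 36.2, 35.3 and 33.8, did not differ beyond their spread, and neither did Arid3a and Igf2bp2, or Igf2bp2 and Igf2bp3. In both libraries Hmga1 was above Gpc3, Gpc3 above every lower gene, and Lin28b below all but Lin28a. The gap from Gpc3 to the next gene was wide: the lower of its TPM values, 277.4, was far above the highest value of any lower gene, 52.1 for Arid3a.

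Differences between the libraries were expressed as log2((TPM + 1) in replicate 2 over replicate 1), centred on the median of 6801 genes whose mean TPM reached 10. Of these, 25.2% were more than 2-fold higher in replicate 2 and 25.8% more than 2-fold higher in replicate 1. Of the 7 fetal genes in that range, 1 was more than 2-fold higher in replicate 2 (Arid3a, 1.67), 1 was more than 2-fold higher in replicate 1 (Igf2bp3, -1.98), and 5 lay within 2-fold. Shares of 1 in 7 are below the background, with too few genes to read a difference from it. Centred on the spike-in RNAs instead, the split over all genes became 1350 higher in replicate 2 and 2245 in replicate 1, a shift of 0.39, and Gpc3 then passed the 2-fold line at -1.03.

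Genes of low level vary more in such libraries, so each difference was set beside the median absolute difference of genes within 1.5 times its mean TPM. Hmga1 differed by -0.07 where genes at its level differed by 0.30. Igf2bp1 differed by -0.07 beside 1.13, Igf2bp2 by -0.21 beside 1.75, and Hmga2 by 0.20 beside 1.11. These 4 genes, and Igf2bp3 with 2.05 for genes at its level, differed by less than that median. Gpc3 (-0.64 beside 0.41) and Arid3a (1.67 beside 1.16) differed by more. The sign turned for Hmga2, to -0.20 with the spike-ins as the centre, and for Hmga1 and Igf2bp1, to 0.03 each when centred on genes with a mean TPM from 1 up, so no direction is given for these 3 genes.

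**Figure D3:**
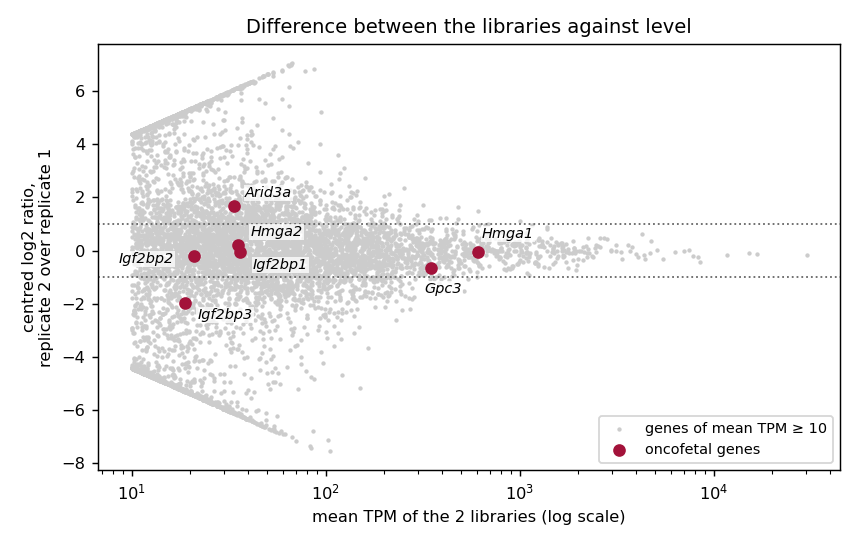
Centred log2 ratio of replicate 2 over replicate 1 against mean TPM (log scale) for 6801 genes of mean TPM of at least 10 (grey) and the 7 fetal genes in that range (red), with dotted lines at 2-fold. Arid3a lies above the upper line, Igf2bp3 below the lower one and the other 5 between them, and the grey cloud narrows as the level rises.

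Markers of other cells also differed between the libraries. So did genes at large: of those whose mean TPM reached 10, 25.2% and 25.8% passed 2-fold towards replicate 2 and replicate 1. Counts of markers detected in both libraries stand beside 27.3% of all protein-coding genes. Macrophage markers summed to TPM 481 in replicate 1 and 209 in replicate 2, with 5 of 8 detected in both and Csf1r and C1qa listed at 0 in replicate 2, while Adgre1 (2.83 and 7.92) and Mrc1 (0.01 and 9.04) went the other way. Mesenchyme markers summed to 264 and 538, with 7 of 10 detected in both, but Des (36.2 and 23.5), Pdgfrb (11.01 and 0.01) and Pdgfra (1.78 and 0.03) were higher in replicate 1. Heart muscle markers summed to 50.3 and 325.5, with 2 of 11 detected in both and 7 in replicate 2 alone, and Actc1 (43.5 and 30.3) was higher in replicate 1. Among those in replicate 2 alone, Myl7, an atrial myosin light chain, had TPM 0 and 93.5, while Nppa and Myh7 had no read in either library. Hepatoblast markers summed to 11951 and 10502, with 9 of 12 detected in both and Foxa2 unread. Erythroid markers summed to 1876 and 1635, with all 10 detected in both. Endothelial markers summed to 112 and 144.5, with 5 of 8 detected in both, and Lyve1 alone (44.58 and 22.61) was higher in replicate 1. Stem and progenitor markers summed to 113.6 and 118.6, with 3 of 8 detected in both. Myb (17 and 0.16), Flt3 (13.29 and 0.02), Runx1 (23.15 and 19.54) and Gata2 (2.09 and 0) were higher in replicate 1. Cd34, Kit, Mecom and Hlf were higher in replicate 2. Igf2bp3 and Gpc3 were higher in replicate 1, where the summed TPM of macrophage, hepatoblast and erythroid markers was larger. Arid3a was higher in replicate 2, where the sums of mesenchyme, heart muscle and endothelial markers were larger. The sums of stem and progenitor markers were too close to read a direction. The part of these cells in the differences of Igf2bp3, Gpc3 and Arid3a was not tested. In whole tissue, fewer cells of a type and less RNA per cell cannot be told apart. Neither can be told apart here from uneven amplification of so little RNA.

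The transcript tables split each gene's TPM over its annotated transcripts. Lin28b and Igf2bp3 have 1 transcript each. Of the 6 other fetal genes with reads, 5 had the same leading transcript in both libraries (Igf2bp1-201, Igf2bp2-201, Hmga1-201, Hmga2-201 and Gpc3-201), and over all 4448 genes of mean TPM of at least 10 with 2 or more transcripts the share was 62.4%. The full-length coding transcript Igf2bp2-201 held 91.2% and 99.4% of its gene's TPM, and Gpc3-201 held 98.0% and 91.4%.

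In 3 genes a transcript without a complete coding frame made up a large part of replicate 2. For Arid3a, the leading transcript was Arid3a-201 in replicate 1, at 38.5%, and Arid3a-204 in replicate 2, at 43.3%. Arid3a-204 is a fragment of 691 bases with an incomplete coding frame, and its TPM was 1.93 in replicate 1 and 22.6 in replicate 2, from 33.8 and 392 reads. Few reads give a high TPM over so short a length. Summed over complete coding transcripts alone, Arid3a had TPM 13.5 and 27.6, a 2.04-fold difference, or 0.95 on the centred log2 scale, just short of the 2-fold line. This sum was chosen after the data had been seen.

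For Igf2bp1, the 576-base processed transcript Igf2bp1-205 had TPM 0 in replicate 1 and 9.65 in replicate 2, from 135 reads. The near equality of Igf2bp1 in the libraries rested on it: its coding transcript Igf2bp1-201 had TPM 36.7 and 26.0, and the gene's CPM was 270 and 198, or 1.36-fold higher in replicate 1. For Hmga2, the retained-intron transcript Hmga2-202 had TPM 0 and 10.4, from 1009 reads in replicate 2, while Hmga2-201 had TPM 32.5 and 27.7. The coding transcripts of Igf2bp1 and Hmga2 were thus both lower in replicate 2, by less than 2-fold. How reads are shared among overlapping transcripts is an estimate of the authors' program.

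**Figure D4:**
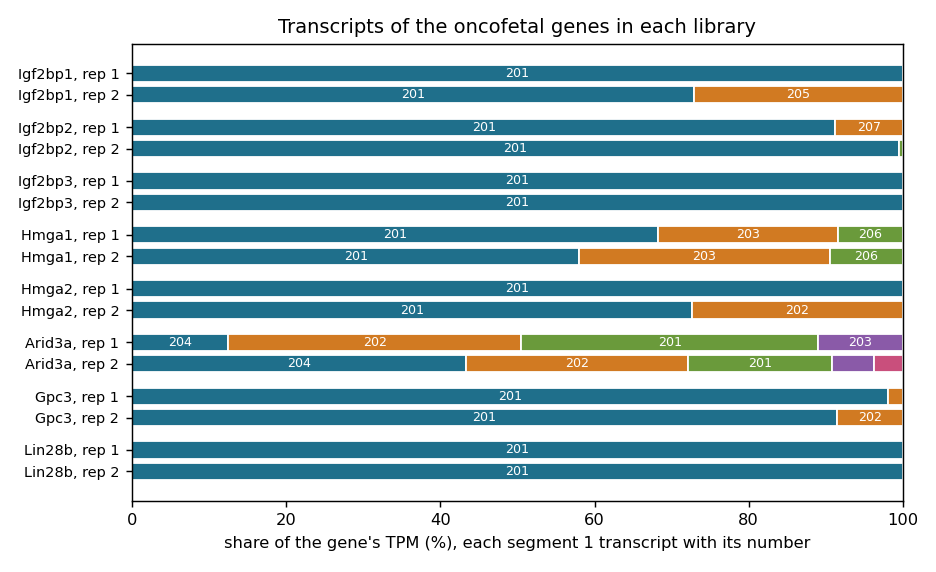
Share of each gene's TPM (%) held by each of its transcripts in replicate 1 and replicate 2, with transcript numbers in the segments. Arid3a changes its leading transcript between the libraries, while Igf2bp1-205 and Hmga2-202 appear in replicate 2 alone.

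Hmga1 makes long and short coding forms that differ by an in-frame segment of 33 bases, or 11 codons, that begins at coding base 103 of the long form. The segment lies on chr17:27559671-27559703 (+ strand, mm10), and it is shown because it is what separates the forms.
Hmga1 segment of the long form: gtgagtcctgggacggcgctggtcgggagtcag
Short transcripts, led by Hmga1-201 with a coding length of 291 bases, held TPM 425 in replicate 1 and 351 in replicate 2. Long transcripts, Hmga1-203 and Hmga1-206 with 321 and 324 bases, held 197 and 254. The long form was thus 31.7% of the gene in replicate 1 and 42.0% in replicate 2 (36.8 ± 7.25, SD, n = 2), and the short form was the larger in both. Lengths of Hmga1 transcripts differ between the annotation of the tables and that used for the sequence (1593 and 1631 bases for Hmga1-201).

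The surroundings of these genes were read from lists of related genes, also chosen with earlier results of these data known. Beside the counts detected in both libraries stands the share of 27.3% of all protein-coding genes. Of 17 genes of microRNA processing and let-7 turnover, 11 were detected in both libraries. Tarbp2, a partner of Dicer, had TPM 235.7 in replicate 1 and 83.1 in replicate 2. Tut4, the enzyme that adds uridines to let-7 precursors bound by Lin28a, had 9.31 and 46.3, and Prkra, another Dicer partner, had 12.2 and 46.0. Ago4 had no read. Of the 9 listed genes whose mean TPM reached 10, 4 were more than 2-fold higher in replicate 2 and 3 in replicate 1, against 25.2% and 25.8% of all genes.

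Other let-7 targets were mostly present as well: 14 of 20 were detected in both libraries, and 13 of 20 hold a seed match in the 3′ UTR, against 7.86% of all genes, on a list chosen as let-7 targets. Among the highest were Myc, at TPM 214.8 and 62.8, and Cdc34, a ubiquitin-conjugating enzyme, at 106 and 82.4. Of 11 whose mean TPM reached 10, 0 were more than 2-fold higher in replicate 2 and 4 in replicate 1, against 25.2% and 25.8% of all genes.

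Messenger RNAs known to be bound by Igf2bp proteins were abundant, with 7 of 8 detected in both libraries. Actb had TPM 3577 and 4046, the imprinted noncoding RNA H19 had 601 and 599.7, and Igf2, the growth factor after which the family is named, had 563 and 398. Igf2bp proteins also read m6A, a methyl mark on RNA, and 13 of 18 genes that write, erase or read it were detected in both. Hnrnpa2b1 was the highest at TPM 575 and 619, followed by Hnrnpc at 334 and 244, and the reader Ythdf2 had 52.0 and 87.0.

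Hmga1 is abundant, but Hmgn2 and Hmgb1, other high mobility group genes, stood above it. Of 10 other such genes, 7 were detected in both libraries. The nucleosome-binding Hmgn2 had TPM 1751 and 1584, Hmgb1 had 1072 and 1456, and Hmgb3 had 469 and 402, while Hmgb4 had no read. Of 9 other ARID genes, 5 were detected in both. Arid3b, a paralog of Arid3a, had TPM 12.0 and 27.3, Arid4b had 26.7 and 64.2, and Arid4a had 74.8 and 11.6. Arid3c had no read.

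Gpc3 stood far above the other heparan sulphate carriers listed, which were glypicans and syndecans alone. Of 9 other glypicans and syndecans, 4 were detected in both libraries, and their summed TPM was 81.3 in replicate 1 and 92.4 in replicate 2, below Gpc3 alone. Syndecan Sdc4 had TPM 9.62 and 54.8, Sdc1 had 31.8 and 25.7, Sdc2 had 9.79 and 9.96, and Gpc5 had no read. Of 12 enzymes that build heparan sulphate chains, 3 were detected in both, near the share of 27.3% of all protein-coding genes. Ext2, which with Ext1 extends the chain, had TPM 31.1 and 21.7, Hs2st1 had 9 and 12.6, and Extl3 had 3.44 and 5.96. Hs6st1, Ndst1 and Ndst2 had no read in either library.

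Other oncofetal genes were led by Afp, the fetal serum protein used as a liver cancer marker, at TPM 4870 and 4016. Of 11 such genes 8 were detected in both libraries, H19 and Igf2 among them, and Epcam and Krt19 had no read. Gpc3 was lower than Afp, H19 and Igf2 in both libraries. Hmga1 was above Igf2 in both. Beside H19 it stood at TPM 622 and 601 in replicate 1, but at 605 and 599.7 in replicate 2, too close to rank.

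**Figure D5:**
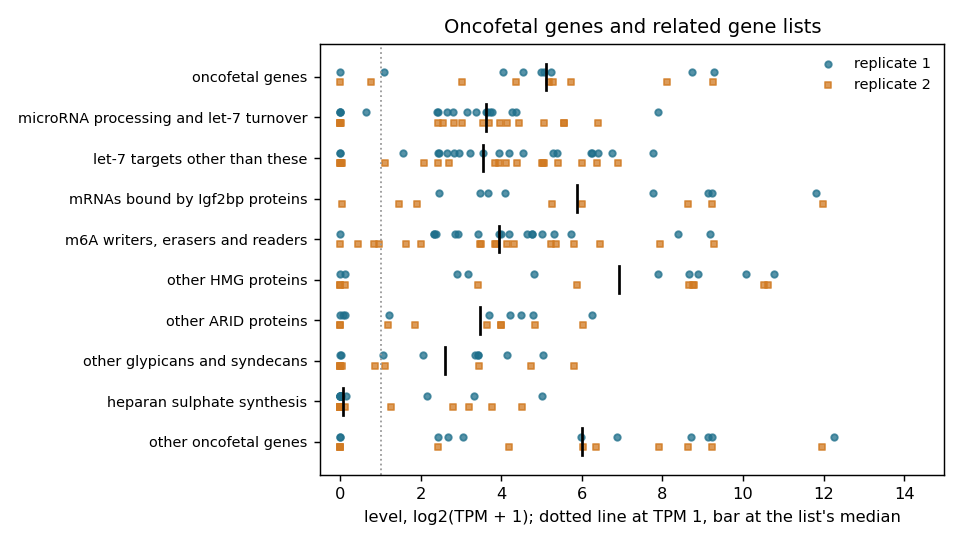
Level, log2(TPM + 1), of every gene of the 9 related lists and of the fetal genes, in replicate 1 (circles) and replicate 2 (squares), with a bar at each list's median and a dotted line at TPM 1. The fetal genes have a median of 5.12, and the median of the genes for heparan sulphate synthesis is at 0.07. For all protein-coding genes the median is 0.0072, while all lists were chosen with earlier results of these data known.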

How the data were processed

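RNA was measured in 2 libraries of pooled embryonic liver. Per the file headers, the authors deposited, for each gene and transcript, expected counts (estimated reads that need not be whole), TPM, FPKM, effective lengths, credibility bounds whose level is not given, and the percent of a gene's TPM that each transcript holds. The assembly is mm10 per the labels, with GENCODE M4 per the deposited notes. For aligner, counting program and strandedness: not given in the sources used here. Total expected counts were 33289699 in replicate 1 and 32607453 in replicate 2. Spike-ins held 5.83% and 7.68% of TPM and stayed in its total. A gene with 0 reads was limited to 3 reads, a CPM of 0.0901 and 0.092.

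Computed here were means, SDs, CPM from the expected counts, centred log2 ratios of the deposited TPM with a pseudocount of 1, and sequence matches. Python 3.11.15, pandas 2.3.3, NumPy 2.4.6 and SciPy 1.17.1 were used. Only the 2-fold rule and the search for sequence matches were tested on simulated data. Symbols, coordinates and transcripts came from GENCODE M21, which matched 42462 of 43346 identifiers, and microRNA sequences from RefSeq. Hmgn4 had no match. Of 3′ UTRs, that of the complete coding transcript with the highest mean TPM was read. The libraries were not 1 library entered again: chi-square per degree of freedom was 814 over 11205 genes of at least 20 reads. With 1 library per replicate no test could be run. The 9 genes and all lists were chosen with earlier results of these data known. All 9 genes are named, and of each related list the 3 genes with the highest mean TPM and up to 3 without reads. A gene that this rule names is not reported here. Protein sequences were not used here. Alternatives covered the detection limit, pseudocount, centring, filter, TPM estimate and leaving out each replicate.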

Additional observations from a re-analysis of the deposited data

How the results depend on the processing

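Centring on the spike-ins gave 2 genes more than 2-fold higher in replicate 1 in place of 1, since Gpc3 joined at -1.03. Complete coding transcripts alone, chosen after the data had been seen, gave 0 genes more than 2-fold higher in replicate 2, as Arid3a came to 0.95; they gave Hmga1 95.3% of the Hmga TPM in place of 94.6%. Expected counts, which are not divided by length, gave Igf2bp1 63.3% of its family in place of 49.1%, Igf2bp2 19.6% in place of 28.3% and Hmga1 87.6% in place of 94.6%. Rescaling TPM without spike-ins and globins took the summed TPM of the 9 genes from 1111 to 1324. Leaving out each replicate in turn gave 7 to 8 detected genes, 41.0% to 57.1% for Igf2bp1, 25.0% to 31.5% for Igf2bp2, 11.4% to 34.0% for Igf2bp3, 94.1% to 95.0% for Hmga1, and a summed TPM of 1035 to 1187. Over all genes, 1716 were more than 2-fold higher in replicate 2 and 1758 in replicate 1; these counts were 3026 and 3297 at a mean TPM of at least 1, 3077 and 3561 with no filter, 2314 and 2525 for CPM, and 1350 and 2245 centred on the spike-ins. Counts of 7 detected genes became 8 at TPM 0.1 or at 10 reads, and matches followed by A were held by 7 genes in place of 8. Of 24 alternatives for single gene levels, 18 stayed within 1 SD and 6 moved up. All 6 were rescalings of TPM without spike-ins, or without spike-ins and globins, which raise every gene that remains. They fell on Igf2bp1, Igf2bp2, Hmga1 and Hmga2, whose SD was small beside their mean. The wide SD of Igf2bp3, Arid3a and Gpc3 left those genes little room to move. No paired analysis was possible because there is only 1 group. With 2 libraries amplified from so little RNA, levels near a TPM of 1, such as that of Lin28b, are not well resolved.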
